A study of Arabidopsis thaliana with 38 samples.

Results

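The cells of the embryonic root tip that become the quiescent centre were compared with the suspensor of the same stage, late globular, in Arabidopsis thaliana. The comparison used the 3 arrays of nuclei labelled QC (QC_LG) against the 3 arrays of nuclei labelled suspensor (SUS_LG), which are 6 of the 38 arrays of the series, and covered all 27826 loci of the deposited table. The 4 arrays of whole-embryo nuclei at the late globular stage (EMB_LG) served to show on which side a difference lay. Flowers had been pollinated by hand, and all 3 groups were collected 100 h later from plants grown in soil under long days. Nuclei were captured with INTACT, a tagging system of 2 components that marks the nuclear envelope of chosen cells so that their nuclei can be pulled out of a mixture. Each array held nuclear RNA of a pooled biological replicate, amplified as cDNA and labelled with biotin. The p-values below set a difference against the spread between such pools, estimated for each locus within all 11 groups of the 38 arrays. That spread is thus not the one of the QC_LG and SUS_LG pools alone. The labels name neither the promoters that drive the tag nor the plant genotype, and they give no batch or array date. The remaining groups, named only where a gene's level across the series is described, were vascular cells (VSC_LG) and ground tissue cells (GSC_LG) at 100 h, vascular cells (VSC_EG), ground tissue cells (GSC_EG), suspensor (SUS_EG) and whole embryo (EMB_EG) at 81 h, and the inner lower tier (ILT_16C) and whole embryo (EMB_16C) at 72 h.

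The quiescent centre is a small set of rarely dividing cells at the root tip that keeps the stem cells around it undifferentiated. In the Arabidopsis embryo it is laid down when the uppermost suspensor cell, the hypophysis, takes on a root fate in response to auxin and divides unequally, and the homeobox gene WOX5 marks the hypophysis and then its upper daughter cell. The rest of the suspensor stays a file of cells that anchors and feeds the embryo and later dies, and it is known for the homeobox genes WOX8 and WOX9. The comparison therefore sets a newly formed embryonic cell type against the extra-embryonic lineage from which it descends.

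Values are log2 of the deposited intensities, so a difference of 1 is a 2-fold change, and the array medians, between 2.47 and 2.71, mark the level near which many loci lie. Differences are QC_LG minus SUS_LG unless another pair is named, and a locus was called at a limma p, adjusted over all loci by Benjamini-Hochberg, under 0.05. The array QC_LG 2 stood apart. Its interquartile range of 1.03 was the lowest of the 38 arrays, which reached 2.1, and its mean correlation across loci with the other QC_LG arrays was 0.635, against 0.694 for QC_LG 1 and 0.701 for QC_LG 3. The SUS_LG arrays correlated with each other between 0.767 and 0.794, and QC_LG arrays with SUS_LG arrays between 0.624 and 0.774. The mean correlation with the SUS_LG arrays was 0.759 for QC_LG 1, 0.637 for QC_LG 2 and 0.726 for QC_LG 3. No QC_LG array was thus closer to its own group than to SUS_LG. Differences of the called genes named below are given with and without QC_LG 2.

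Few genes were called between the quiescent centre and the suspensor. Of 27826 loci, 21 were called higher in QC_LG (0.0755%) and 7 were called lower (0.0252%), 28 in all (0.101%). The rises lay between 1.59 and 6.22 on the log2 scale and the falls between -1.78 and -2.64. They included WOX5 and the zinc finger gene WIP4, which rose, and the flavonoid regulator TT8 and the phenylpropanoid enzyme gene C4H, which fell. In all 28 the arrays of the groups did not overlap, which was also so of 5.99% of all loci in the higher direction and of 5.52% in the lower. Calling loci on these same arrays favours such separation, so it is no separate support for the calls. The median locus differed by 0.03. At an unadjusted limma p under 0.05, 1162 of all loci were higher and 1207 lower, and the list counts below are to be read beside these.

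The rises and the falls lay at different levels. The 21 loci that rose had a median level of 4.56 in QC_LG and 1.87 in SUS_LG, and in each of them the SUS_LG mean was under 3. The 7 that fell had a median level of 3.32 in QC_LG and 5.79 in SUS_LG. Set against the 11 groups of the series, QC_LG had the highest mean for all 21 rises, and SUS_LG had the highest mean for 6 of the 7 falls, RD22 being the exception. These levels and ranks come from the same arrays on which the loci were called. They describe the calls and are no separate support for them. Since the quiescent centre is a few cells and each sample is a bulk of nuclei, fewer cells of a type and less RNA per cell cannot be told apart in any of these differences.

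The number of calls depended on single arrays. It was 0 without SUS_LG 2 (1860 loci at an unadjusted limma p under 0.05, against 2369 or 8.51% with all arrays), 3 without SUS_LG 3, 14 without SUS_LG 1, 6 without QC_LG 3, 43 without QC_LG 2 and 107 without QC_LG 1. The sign of the 28 differences could not change in these fits, since the arrays of the groups do not overlap at these loci. No locus was called in more than 4 of the 6, a count reached by AT1G30974, JOSL, TT8 and CYP83B1.

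**Figure D1:**
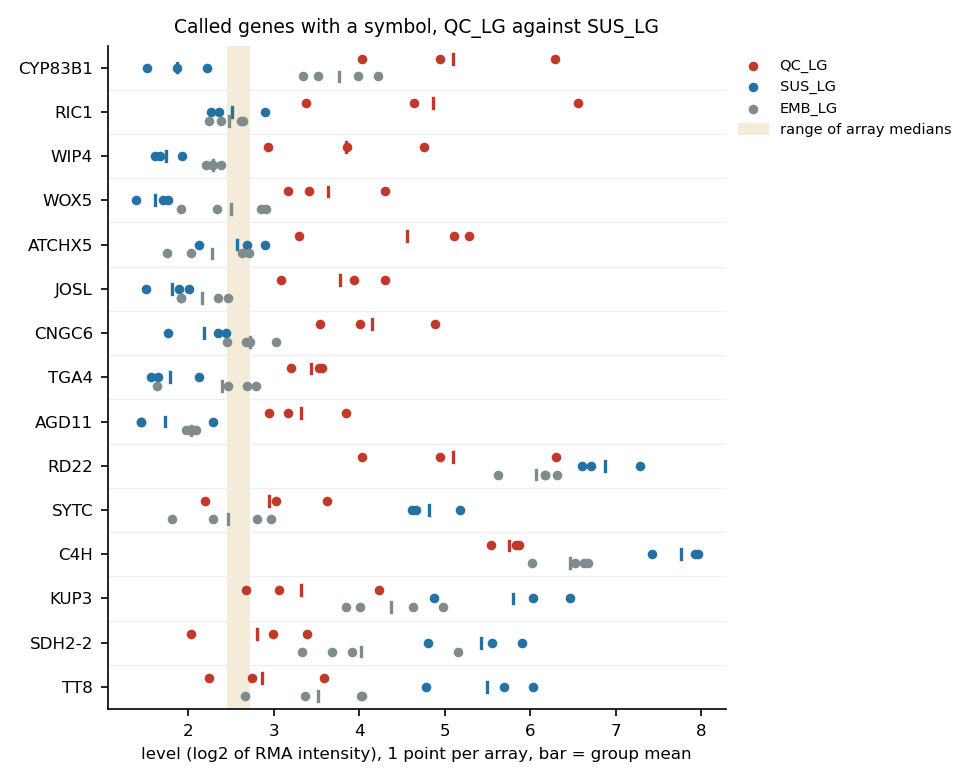
Level of the 15 called genes with a symbol (log2 of RMA intensity, horizontal axis), 1 point per array and a bar for each group mean, with QC_LG in red, SUS_LG in blue and EMB_LG in grey; the shaded band is the range of the array medians, 2.47 to 2.71. The 9 genes above RD22 are higher in every QC_LG array than in any SUS_LG array, and RD22 and the 5 genes under it are lower in every QC_LG array.

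WOX5 (AT3G11260), the homeobox gene that marks the quiescent centre and holds its neighbours undifferentiated, had levels of 3.42, 4.30 and 3.17 in the 3 QC_LG arrays, against 1.76, 1.38 and 1.70 in the 3 SUS_LG arrays. Every QC_LG array lay above every SUS_LG array, and the SUS_LG values were well under the array medians. WOX5 rose by 2.02 on the log2 scale, 4.04-fold (SE 0.411, 95% interval 1.18 to 2.85, limma adjusted p = 0.0362). Without QC_LG 2, which held the highest value, the difference was 1.68 (adjusted p = 0.127), and over the 6 fits that each leave out 1 array it ran from 1.68 to 2.24, with adjusted p from 0.0309 to 0.178 and a call in 1 of the 6. In EMB_LG the gene had 2.85, 2.34, 1.91 and 2.91, between the other groups. QC_LG minus EMB_LG was 1.13 (adjusted p = 0.153) and SUS_LG minus EMB_LG was -0.89 (adjusted p = 0.369), 2 comparisons that share the EMB_LG arrays. The GSC_LG mean of 2.89 was the next highest of the 11 groups, and it rested on 1 array at 4.28 beside others at 2.15 and 2.25.

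WIP4 (AT3G20880) encodes a C2H2 zinc finger protein of the WIP family, which acts redundantly with NTT and WIP5 in starting the embryonic root. Its levels were 3.86, 2.93 and 4.75 in QC_LG and 1.61, 1.93 and 1.67 in SUS_LG. The groups did not overlap, and QC_LG 2 was the lowest of the QC_LG arrays. WIP4 rose by 2.11, 4.32-fold (SE 0.399, interval 1.30 to 2.92, limma adjusted p = 0.0209), and by 2.57 (adjusted p = 0.00423) without QC_LG 2. Over the 6 fits that each leave out 1 array the difference ran from 1.66 to 2.57, with adjusted p up to 0.133 and a call in 2 of the 6. Against EMB_LG, where the arrays held 2.2, 2.28, 2.29 and 2.39, the QC_LG difference of 1.56 passed (adjusted p = 0.0235) and the SUS_LG difference of -0.55 did not (adjusted p = 0.69). No array outside QC_LG exceeded 2.70 except 1 EMB_16C array at 3.97.

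**Figure D2:**
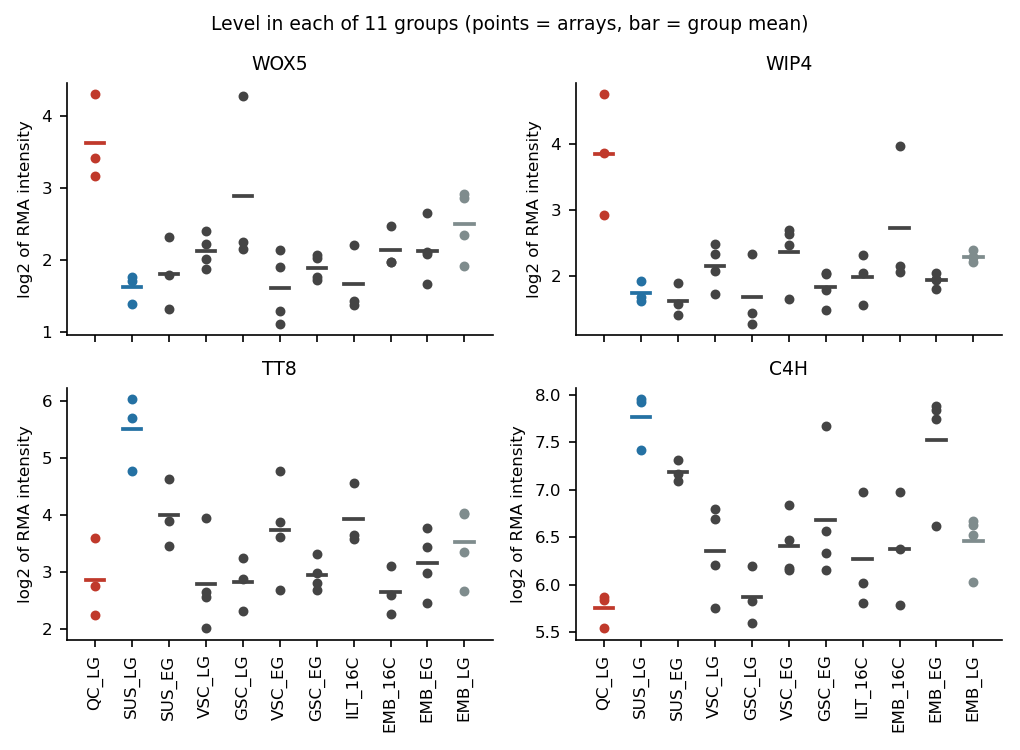
Level of WOX5, WIP4, TT8 and C4H in all 11 groups (log2 of RMA intensity, vertical axes, which do not start at 0), 1 point per array and a bar for each group mean. QC_LG has the highest mean for WOX5 and WIP4 (3.63 and 3.85), and SUS_LG the highest for TT8 and C4H (5.50 and 7.77).

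The other genes of root pole and quiescent centre formation did not pass the test. Of the 22 listed, 2 rose (WOX5 and WIP4), 0 fell and 20 did not pass, with a median of 0.13 beside 0.03 over all loci. At an unadjusted p under 0.05 there were 3 higher, the added gene being TMO7, and 0 lower. TMO7 (AT1G74500), a small bHLH protein made in the embryo that moves into the hypophysis, had 3.40, 2.83 and 3.06 in QC_LG and 1.33, 2.13 and 1.73 in SUS_LG. Its arrays did not overlap, but the difference of 1.37 (interval 0.33 to 2.4) missed the threshold at an adjusted p of 0.372. SCR (AT3G54220), a GRAS protein needed for the quiescent centre and the endodermis, had 3.90, 3.78 and 4.54 in QC_LG and 3.20, 3.02 and 3.62 in SUS_LG. Its arrays also stood apart, with a difference of 0.79 (adjusted p = 0.699). RGF1 (AT5G60810), which encodes a peptide of the root meristem, differed by 0.42 with no overlap and values of 1.8 to 2.09 in QC_LG and 1.42 to 1.63 in SUS_LG. In all, 5 of 22 (22.7%) were higher in every QC_LG array and 1 (4.55%), NTT, was lower in every one, beside the 5.99% and 5.52% of all loci.

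The PLETHORA genes, AP2-type factors that specify the root stem cell niche, lay close to the array medians in both groups. PLT1 (AT3G20840) had 2.41, 2.43 and 2.93 in QC_LG and 3.04, 1.97 and 3.47 in SUS_LG. PLT2 (AT1G51190) had 2.87, 3.21 and 2.54 in QC_LG and 2.56, 2.58 and 2.91 in SUS_LG. The groups overlapped for both, and the intervals of the differences, -1.56 to 1.08 for PLT1 and -0.95 to 1.32 for PLT2, leave room for more than a 2-fold change either way at PLT1 and upward at PLT2. In the whole embryo PLT1 reached 4.20 and PLT2 reached 5.07 in single arrays. BBM (AT5G17430), a relative of the PLETHORA genes, had 4.36, 3.17 and 4.44 in QC_LG and 3.17, 3.16 and 4.53 in SUS_LG, overlapping levels with a difference of 0.37 (adjusted p = 0.94). AIL6 differed by 0.25.

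SHR (AT4G37650), whose protein moves from the vascular cells to its neighbours and activates SCR, had 4.89, 3.22 and 5.43 in QC_LG and 4.91, 4.13 and 5.11 in SUS_LG. The groups overlapped, with a difference of -0.20 (interval -1.26 to 0.85). The zinc finger genes JKD and MGP, which work with SHR and SCR, differed by -0.28 and -0.10. NTT (AT3G57670), the WIP family member named above, had 1.83, 2.25 and 2.02 in QC_LG and 2.60, 2.32 and 2.95 in SUS_LG, a difference of -0.59 (adjusted p = 0.759), of the opposite sign to that of WIP4. WIP5 differed by 0.03 (interval -0.82 to 0.87). FEZ and SMB, NAC factors of root cap stem cells and maturing root cap, differed by 0.09 and 0.19, and the peptide gene CLE40 by 0.00. HAN, a GATA factor that sets the boundary between the upper and lower embryo, differed by 0.09, SPT by -0.68, AGL42 by 0.33, BRAVO by 0.16 and ERF115 by -0.22, none of which passed.

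WOX5 was 1 of 15 genes of its homeobox family on the array and the only member called, and WIP4 was 1 of 6 of its zinc finger family and the only member called; these families were chosen after values were seen. The family medians were 0.03 and 0.04. WOX7, a close relative of WOX5, differed by 0.26 with overlapping arrays.

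**Figure D3:**
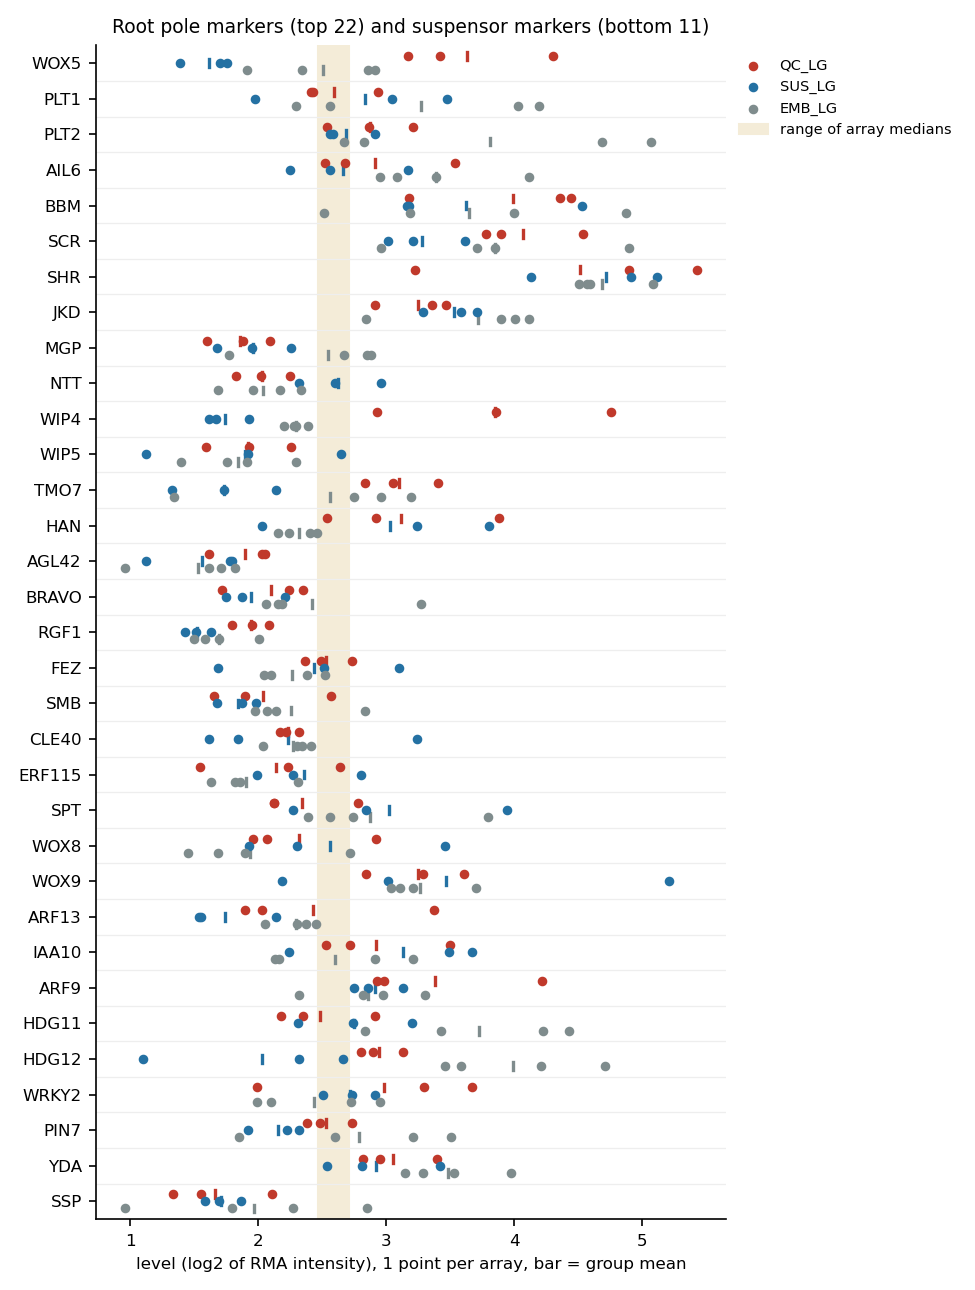
Level of the 22 root pole genes (WOX5 to SPT) and the 11 suspensor genes (WOX8 to SSP), as log2 of RMA intensity, 1 point per array with a bar at each group mean, QC_LG in red, SUS_LG in blue and EMB_LG in grey; the band is the range of array medians. WOX5 and WIP4 are the called genes, and most of the others lie near the band with QC_LG and SUS_LG arrays mixed.

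None of the 11 suspensor markers separated SUS_LG from QC_LG by the test. All 11 missed the threshold in limma, with 1 higher in QC_LG and 0 lower at an unadjusted p under 0.05, and the differences ran from -0.27 to 0.92 with a median of 0.13. WOX8 (AT5G45980), the homeobox gene that marks the basal lineage from the zygote onward, had 1.96, 2.07 and 2.92 in QC_LG and 3.46, 1.93 and 2.30 in SUS_LG. WOX9 (AT2G33880), its partner, had 2.84, 3.29 and 3.61 in QC_LG and 5.21, 2.19 and 3.02 in SUS_LG. In both genes SUS_LG 1 was the highest of the 6 arrays, SUS_LG 2 the lowest, and SUS_LG 3 lay among the QC_LG arrays. The differences were -0.24 (interval -1.13 to 0.65) for WOX8 and -0.22 (interval -1.24 to 0.79) for WOX9.

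The suspensor auxin response factor gene ARF13 (AT1G34170) had 1.89, 3.37 and 2.03 in QC_LG and 2.14, 1.53 and 1.55 in SUS_LG, a difference of 0.69 (adjusted p = 0.5), and its repressor partner IAA10 differed by -0.22. HDG12 (AT1G17920), a class IV homeodomain gene, was higher in every QC_LG array, at 2.90, 2.80 and 3.13, than in SUS_LG, at 2.32, 1.10 and 2.66, and PIN7, an auxin efflux carrier gene, was so too. These were 2 of 11, beside 5.99% of all loci, with differences of 0.92 and 0.38, neither called. WRKY2, which activates WOX8 in the zygote, differed by 0.27. YDA, the kinase that promotes suspensor fate, differed by 0.13, and SSP, which acts upstream of YDA, by -0.05. The label suspensor was thus not borne out by these 11 genes in the contrast with QC_LG, nor in that with EMB_LG. Against EMB_LG the sole call among the 11 was HDG12 (SUS_LG minus EMB_LG -1.96, limma adjusted p = 0.0307), lower in SUS_LG as were 0.428% of all loci. HDG12 is also a member of the protoderm list used here. How well each of the 11 marks the suspensor at 100 h was not tested, so these values do not contradict the label either. Of the markers listed for QC, WOX5 and WIP4 passed with all arrays, in calls that most removals of 1 array ended, and no other passed.

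The gene of smallest p was CYP83B1 (AT4G31500), a cytochrome P450 gene at the step that sends indole-3-acetaldoxime into indole glucosinolates and so away from auxin. It had 4.04, 4.94 and 6.29 in QC_LG and 2.22, 1.52 and 1.87 in SUS_LG. The groups were more than 1.5 log2 units apart at their nearest arrays. CYP83B1 rose by 3.22, 9.32-fold (SE 0.498, interval 2.21 to 4.23, limma adjusted p = 0.00608), and by 3.30 (adjusted p = 0.00721) without QC_LG 2. Its whole-embryo level lay between, at 3.98, 3.34, 4.22 and 3.52. QC_LG minus EMB_LG was 1.33 (adjusted p = 0.172), while SUS_LG minus EMB_LG was -1.90 (adjusted p = 0.0389), in comparisons that share EMB_LG.

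No other gene of the pathway around CYP83B1 was called. Of 17 genes of glucosinolate synthesis, a group put together after values were seen, CYP83B1 was called higher, 0 were called lower and the median was 0.18. CYP79B2 and CYP79B3, which make the aldoxime that CYP83B1 uses, differed by 0.05 and 0.21, and their levels lay between 1.75 and 3.25. SUR1, the C-S lyase of the following steps, had 2.42, 2.22 and 2.21 in QC_LG and 2.72, 2.33 and 2.79 in SUS_LG, a difference of -0.33. SOT16, a sulfotransferase gene of the last step, had 3.42, 5.77 and 4.39 in QC_LG and 5.16, 6.39 and 5.86 in SUS_LG, a difference of -1.28 (adjusted p = 0.353). Among auxin synthesis genes, 0 of 14 were called in limma and 0 reached an unadjusted p under 0.05, with a median of 0.20.

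TGA4 (AT5G10030) encodes a bZIP transcription factor known from defence and from nitrate responses in roots. It had 3.20, 3.53 and 3.56 in QC_LG and 2.13, 1.56 and 1.65 in SUS_LG, with no overlap. TGA4 rose by 1.65 (SE 0.341, limma adjusted p = 0.0375), and without QC_LG 2 the difference was 1.6 (adjusted p = 0.0749).

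RIC1 (AT2G33460), an effector of ROP GTPases that orders cortical microtubules in epidermal cells, had 3.38, 4.64 and 6.56 in QC_LG and 2.26, 2.90 and 2.36 in SUS_LG. ATCHX5 (AT1G08150), of the cation/H+ exchanger family, had 3.30, 5.10 and 5.28 in QC_LG and 2.13, 2.90 and 2.69 in SUS_LG. CNGC6 (AT2G23980), a cyclic nucleotide-gated cation channel gene, had 4.01, 3.55 and 4.88 in QC_LG and 2.35, 2.44 and 1.77 in SUS_LG. The groups stood apart in all 3 genes, and QC_LG 1 was the lowest QC_LG array for RIC1 and ATCHX5. The rises were 2.35 for RIC1 (limma adjusted p = 0.0224), 1.99 for ATCHX5 (adjusted p = 0.038) and 1.96 for CNGC6 (adjusted p = 0.0375). Without QC_LG 2 they were 2.46 (adjusted p = 0.0287), 1.72 (adjusted p = 0.129) and 2.26 (adjusted p = 0.0256) in the same order.

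JOSL (AT2G29640), a Josephin-like gene, had 3.94, 3.08 and 4.29 in QC_LG and 1.89, 1.51 and 2.01 in SUS_LG, a rise of 1.97 (SE 0.336, limma adjusted p = 0.0124) that was 2.32 (adjusted p = 0.00312) without QC_LG 2. AGD11 (AT3G07490) had 3.85, 2.94 and 3.17 in QC_LG and 1.45, 1.45 and 2.29 in SUS_LG, a rise of 1.59 (adjusted p = 0.0375) that was 1.78 (adjusted p = 0.0282) without QC_LG 2. In both the lowest QC_LG array was QC_LG 2 and still lay above every SUS_LG array. Against EMB_LG, QC_LG was higher by 1.61 for JOSL (adjusted p = 0.00467) and by 1.29 for AGD11 (adjusted p = 0.0219), while SUS_LG differed from EMB_LG by -0.36 and -0.31, neither called.

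The remaining 12 rises have no symbol in the gene table used here, and those named were chosen after their values were seen. AT1G30974 showed the largest rise of all. It had 8.56, 9.85 and 8.00 in QC_LG and 3.46, 1.97 and 2.34 in SUS_LG, a rise of 6.22 or 74.3-fold (SE 1.04, limma adjusted p = 0.0124), which was 5.69 (adjusted p = 0.0282) without QC_LG 2. The gap between the nearest arrays of the groups was wider than the spread within either group. This locus was also bright in ground tissue nuclei, with means of 7.17 in GSC_LG and 7.92 in GSC_EG, and in ILT_16C (6.17), but not in EMB_LG (2.62), VSC_LG (1.42) or SUS_EG (2.25).

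AT3G44570 had 7.37, 5.21 and 6.75 in QC_LG and 1.82, 2.69 and 2.59 in SUS_LG, a rise of 4.08 (limma adjusted p = 0.0362). In the younger suspensor its mean was 5.28, nearer to QC_LG than to SUS_LG. AT5G62240 had 4.54, 5.27 and 8.10 in QC_LG and 2.25, 2.47 and 1.72 in SUS_LG, a rise of 3.83 (adjusted p = 0.027). AT1G58090 was uneven in QC_LG, at 3.96, 2.46 and 7.95, beside 1.64, 1.77 and 1.79 in SUS_LG, so that most of its rise of 3.06 (adjusted p = 0.044) came from QC_LG 3. AT5G47000 had 4.18, 6.67 and 7.26 in QC_LG and 3.46, 2.03 and 2.95 in SUS_LG, a rise of 3.23 (adjusted p = 0.0209), and its mean in VSC_LG was 4.98. Without QC_LG 2 the differences were 4.70 for AT3G44570 (adjusted p = 0.0243), 4.18 for AT5G62240 (adjusted p = 0.0282), 4.22 for AT1G58090 (adjusted p = 0.000646) and 2.91 for AT5G47000, which then was not called (adjusted p = 0.063). QC_LG 3 was the highest QC_LG array for the last 3 of these loci and for RIC1, CYP83B1 and WIP4.

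The falls were led by TT8 (AT4G09820), a bHLH factor that switches on late flavonoid genes and is best known from the seed coat. It had 2.25, 2.75 and 3.59 in QC_LG and 4.78, 6.03 and 5.69 in SUS_LG. The lowest SUS_LG array lay above the highest QC_LG array by more than a 2-fold change. TT8 fell by 2.64 on the log2 scale, 6.22-fold (SE 0.491, interval -3.63 to -1.64, limma adjusted p = 0.0209), and by 2.58 (adjusted p = 0.0403) without QC_LG 2. The whole embryo held 2.66, 4.03, 3.36 and 4.02, so that the suspensor was the group that stood off: SUS_LG minus EMB_LG was 1.98 (adjusted p = 0.0265) and QC_LG minus EMB_LG was -0.66 (adjusted p = 0.654).

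C4H (AT2G30490), cinnamate 4-hydroxylase, which feeds both lignin and flavonoid synthesis, was above the array medians in all groups. It had 5.84, 5.54 and 5.87 in QC_LG and 7.42, 7.92 and 7.96 in SUS_LG. C4H fell by 2.02, 4.05-fold (SE 0.382, limma adjusted p = 0.0209), with a difference of -1.91 (adjusted p = 0.058) without QC_LG 2. Its EMB_LG arrays, at 6.03, 6.63, 6.67 and 6.53, lay between the groups, and neither the QC_LG difference of -0.71 (adjusted p = 0.429) nor the SUS_LG difference of 1.30 (adjusted p = 0.0743) from EMB_LG passed. The younger suspensor also had a high C4H mean of 7.19, as did the whole embryo at 81 h (7.52).

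Of 8 genes of the phenylpropanoid entry steps, chosen after values were seen, C4H was called lower, 0 were called higher and the median was -0.63. PAL2, a phenylalanine ammonia-lyase gene, had 5.57, 6.27 and 4.81 in QC_LG and 5.96, 7.45 and 7.11 in SUS_LG, with overlapping arrays and a difference of -1.29 (adjusted p = 0.324). The gene 4CL3, a coumarate ligase of the flavonoid branch, was lower in every QC_LG array, at 4.54, 4.44 and 4.93, than in SUS_LG, at 4.98, 5.80 and 5.68, but the difference of -0.85 did not pass (adjusted p = 0.693).

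SDH2-2 (AT5G40650), an iron-sulfur subunit gene of succinate dehydrogenase in mitochondrial respiration, had 3.38, 3.00 and 2.04 in QC_LG and 5.91, 4.80 and 5.55 in SUS_LG. KUP3 (AT3G02050), a potassium transporter gene, had 4.23, 2.67 and 3.06 in QC_LG and 4.88, 6.04 and 6.47 in SUS_LG. SYTC (AT5G04220), of the synaptotagmin family of membrane tethers, had 3.62, 2.19 and 3.03 in QC_LG and 5.18, 4.62 and 4.66 in SUS_LG. All 3 were lower in every QC_LG array. The falls were -2.61 for SDH2-2 (limma adjusted p = 0.0443), -2.47 for KUP3 (adjusted p = 0.0362) and -1.87 for SYTC (adjusted p = 0.038). Without QC_LG 2 the differences were -2.71, -2.15 and -1.49, at adjusted p of 0.0609, 0.111 and 0.152. Of the 7 falls, SYTC had the smallest p against the whole embryo, with SUS_LG minus EMB_LG at 2.35 (adjusted p = 0.000637) and QC_LG minus EMB_LG at 0.48 (adjusted p = 0.695).

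RD22 (AT5G25610), a dehydration- and abscisic acid-responsive gene, had 6.30, 4.03 and 4.94 in QC_LG and 6.71, 7.29 and 6.61 in SUS_LG. It fell by 1.78 (limma adjusted p = 0.0456), the smallest of the falls, and without QC_LG 2, the lowest array, the difference was -1.25 (adjusted p = 0.215). AT2G23910, which has no symbol in the gene table and was chosen after its values were seen, had 4.59, 5.57 and 4.73 in QC_LG and 7.13, 7.89 and 7.58 in SUS_LG, a fall of 2.57 (adjusted p = 0.038), with a difference of -2.87 (adjusted p = 0.0287) without QC_LG 2.

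Most genes of the seed coat flavonoid pathway had differences below 0. Of 17, TT8 was called lower, 0 were called higher, 15 differences were below 0, beside 13196 of 27826 loci, and the median was -0.67 beside 0.03. In all, 6 members were lower at an unadjusted p under 0.05, counting TT8. DFR (AT5G42800), dihydroflavonol reductase and a target of TT8, had 6.63, 7.01 and 6.01 in QC_LG and 8.04, 8.95 and 8.75 in SUS_LG, a difference of -2.03 that just missed (adjusted p = 0.0795). TT4 (AT5G13930), chalcone synthase, had 7.78, 8.59 and 8.20 in QC_LG and 8.49, 9.62 and 9.45 in SUS_LG, a difference of -1.0 (adjusted p = 0.333). TT8, DFR, F3H and TT12 were lower in every QC_LG array, 4 of 17 (23.5%) beside 5.52% of all loci.

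The mean of these 17 genes was 4.88, 5.13 and 4.83 in the QC_LG arrays, 5.28, 6.06 and 5.64 in the SUS_LG arrays and 4.84, 4.97, 5.01 and 4.52 in the EMB_LG arrays. The SUS_LG arrays lay above all of those of QC_LG and EMB_LG, and 1 VSC_LG array reached 5.56. Earlier stages had like levels, with group means of 5.43 in EMB_EG and 5.36 in SUS_EG, and single arrays at 5.93 in ILT_16C and 5.69 in GSC_EG. The mean of the 17 genes lay above the array medians in every array of the series, from 4.23 in GSC_LG to 6.06 in SUS_LG. The differences of TT8 and C4H were -2.23 (adjusted p = 0.118) and -1.68 (adjusted p = 0.123) in a fit, chosen after seeing the data, that held the mean of the uncalled members as a covariate, and in it 0 loci were called and 1885 reached an unadjusted p under 0.05 in limma. The part of seed coat RNA in these differences was not tested.

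Most pollen and pollen tube genes had differences above 0. Of 23, 20 differences were above 0, beside 14630 of 27826 loci, and the median was 0.99 beside 0.03. In limma 0 were called, and 10 were higher and 0 lower at an unadjusted p under 0.05, beside 1162 higher and 1207 lower of all loci. RALFL19 (AT2G33775), a peptide gene of the pollen tube, had 4.20, 6.25 and 7.04 in QC_LG and 5.21, 2.91 and 3.34 in SUS_LG, a difference of 2.01 (adjusted p = 0.269). ANX2 (AT5G28680), a receptor kinase gene that keeps the pollen tube intact, had 5.0, 4.34 and 8.20 in QC_LG and 5.30, 3.34 and 2.80 in SUS_LG, a difference of 2.03 (adjusted p = 0.337). PPME1 (AT1G69940), a pectin methylesterase gene of pollen, had 2.11, 5.89 and 4.92 in QC_LG and 2.07, 1.86 and 2.51 in SUS_LG, a difference of 2.16 (adjusted p = 0.333). The arrays overlapped in all 3, with QC_LG 1 below a SUS_LG array in each and QC_LG 2 below SUS_LG 1 in ANX2.

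The mean of the 23 pollen genes was 3.80, 4.85 and 5.65 in QC_LG, 4.36, 3.50 and 3.44 in SUS_LG and 3.58, 3.30, 3.10 and 2.83 in EMB_LG. Against EMB_LG, 7 of the 23 were called higher in QC_LG, as were 0.733% of all loci, with a median of 1.76, while the median of SUS_LG minus EMB_LG was 0.38. The mean of the pollen genes was 3.88, 4.43, 4.51 and 5.03 in VSC_LG and 2.90, 3.19 and 3.01 in GSC_LG. QC_LG 1 was the lowest and QC_LG 3 the highest QC_LG array for this mean. With this mean as a covariate, a fit also chosen after seeing the data, 0 loci were called and 1682 reached an unadjusted p under 0.05 in limma. The difference of AT5G47000 then was 1.70 beside 3.23, that of RIC1 1.74 beside 2.35, that of ATCHX5 1.32 beside 1.99 and that of CYP83B1 2.66 beside 3.22. Those of WOX5, WIP4, JOSL and TT8 were 1.86 beside 2.02, 2.13 beside 2.11, 2.04 beside 1.97 and -2.46 beside -2.64. These genes are a selection, and all 21 rises and 7 falls kept their sign in this fit. The pollen mean itself differed between the groups, at 4.77 in QC_LG and 3.77 in SUS_LG, so the fit cannot tell it apart from the group. The part of pollen RNA in the results was not tested.

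**Figure D4:**
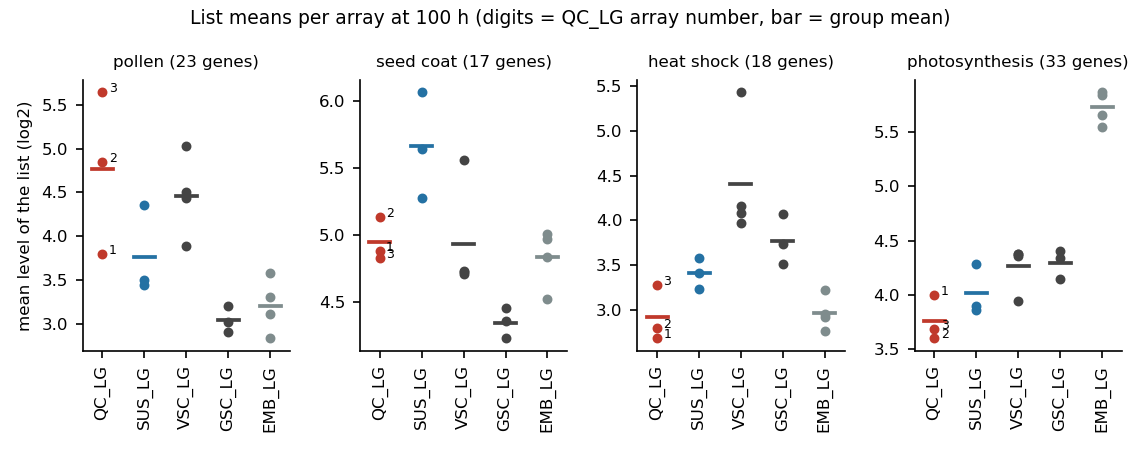
Mean level of the pollen, seed coat, heat shock and photosynthesis lists (log2 of RMA intensity, vertical axes, which differ and do not start at 0) in each array of the 5 groups taken at 100 h, with a bar for each group mean and the array number beside the QC_LG points. The seed coat mean is highest in SUS_LG (5.66) and the photosynthesis mean in EMB_LG (5.73), and the pollen mean of the QC_LG arrays runs from 3.80 to 5.65.

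The markers of other embryonic and seed tissues did not separate the groups by the test. Limma called 0 of 19 vascular, 0 of 7 ground tissue, 0 of 13 protoderm, 0 of 18 shoot apex and cotyledon and 0 of 13 endosperm genes. At an unadjusted p under 0.05 there were 3 higher vascular, 1 higher ground tissue, 3 lower protoderm, 2 higher shoot and 0 endosperm genes. Of all 27826 loci, 1162 were higher and 1207 lower by the same measure. Of the vascular genes 3 (15.8%) were higher in every QC_LG array, beside 5.99% of all loci. TMO5 (AT3G25710), a bHLH factor that starts vascular divisions, had 4.14, 4.24 and 3.18 in QC_LG and 2.38, 1.72 and 2.54 in SUS_LG, with no overlap and a difference of 1.64 (adjusted p = 0.205). Its relative T5L1 (AT1G68810) had 3.72, 3.27 and 4.57 in QC_LG and 2.99, 2.12 and 2.55 in SUS_LG, also without overlap (1.30, adjusted p = 0.242). FDH (AT2G26250), a fatty acid elongation gene of the epidermis, had 6.95, 7.64 and 6.71 in QC_LG and 7.73, 8.76 and 8.10 in SUS_LG, a difference of -1.10 (adjusted p = 0.141). The medians of the 5 lists lay between -0.17 and 0.26, and no endosperm gene stood apart in either direction.

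No auxin response gene passed the test. Of 22 auxin response factor genes, 0 were called in limma, 3 were higher and 1 lower at an unadjusted p under 0.05, and the median was 0.08. ARF14 (AT1G35540), one of a cluster of closely related factor genes that could share probes, had 2.77, 3.91 and 5.89 in QC_LG and 1.51, 2.00 and 2.14 in SUS_LG, a difference of 2.30 (adjusted p = 0.11). ARF10 (AT2G28350), a repressing factor held down by a microRNA in the root cap, had 4.42, 2.74 and 4.51 in QC_LG and 2.73, 2.57 and 2.50 in SUS_LG, a difference of 1.29 (adjusted p = 0.329). ARF2 (AT5G62000) was lower in every QC_LG array, at 5.69, 4.77 and 5.74, than in SUS_LG, at 5.89, 6.8 and 6.02 (-0.84, adjusted p = 0.477). Of 35 Aux/IAA repressor and auxin receptor genes 0 were called, 2 were higher and 2 lower at an unadjusted p under 0.05, with a median of 0.02. Of 17 transport genes 0 were called and 0 reached an unadjusted p under 0.05. PIN3 (AT1G70940), an efflux carrier gene, varied within the suspensor itself, at 2.21, 6.45 and 5.89, beside 3.41, 3.43 and 4.1 in QC_LG.

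Cytokinin genes numbered 0 called of 18, with AHK3 (AT1G27320), a cytokinin receptor gene, at 2.91, 1.94 and 2.02 in QC_LG and 4.17, 3.88 and 2.55 in SUS_LG (-1.24, adjusted p = 0.394). It was the sole member at an unadjusted p under 0.05. The cell cycle lists gave 0 calls among 23 genes of G2 and M phase, 16 of S phase and 10 D-type cyclins, 0 at an unadjusted p under 0.05, and medians of 0.06, 0.26 and -0.02. CDC20.1 (AT4G33270), an activator of the anaphase-promoting complex, was the gene of smallest p in its list, at 6.29, 3.84 and 4.68 in QC_LG and 5.06, 2.69 and 2.80 in SUS_LG, a difference of 1.42 within overlapping arrays. The DNA methylation and Polycomb list had 0 calls of 16, 0 at an unadjusted p under 0.05 and a median of 0.05.

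Of 12 seed maturation genes 0 were called in limma and 2 were lower at an unadjusted p under 0.05, with a median of -0.12. FUS3 (AT3G26790), a B3 factor of the maturation programme, had 3.06, 2.08 and 1.8 in QC_LG and 4.41, 4.51 and 3.32 in SUS_LG, with no overlap and a difference of -1.76 (adjusted p = 0.191). SESA4 (AT4G27170), a 2S albumin storage protein gene, had 2.84, 3.33 and 3.15 in QC_LG and 7.04, 5.01 and 5.14 in SUS_LG, a difference of -2.63 (adjusted p = 0.324). Every QC_LG array was below every SUS_LG array for both. Storage albumin genes are closely related in sequence, and probes may not tell them apart.

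The heat shock list had 15 of 18 differences below 0, beside 13196 of 27826 loci, a median of -0.38, 0 calls in limma and 1 lower at an unadjusted p under 0.05. HSP101 (AT1G74310), a chaperone that dissolves protein aggregates, had 3.18, 2.80 and 3.72 in QC_LG and 5.17, 5.04 and 3.85 in SUS_LG, a difference of -1.46 (adjusted p = 0.573). The list mean was 2.68, 2.79 and 3.27 in QC_LG and 3.57, 3.41 and 3.23 in SUS_LG, which overlapped, and 3.97 to 5.43 in VSC_LG. The wound, touch and jasmonate list had 0 calls of 18, 0 at an unadjusted p under 0.05 and a median of -0.14, and the secondary wall list had 0 calls of 10 and 0 at an unadjusted p under 0.05.

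The secondary wall list set QC_LG 1 apart, with a list mean of 5.29 in that array beside 3.30 and 2.79 in the other QC_LG arrays and 4.11, 4.3 and 3.56 in SUS_LG. Its group means were 5.37 in VSC_LG and 5.74 in GSC_LG. The median difference of this list was -0.28, and it ran from -1.05 to 0.12 when 1 array was left out. QC_LG 2 moved several list medians: without it they were 0.22 for the wound, touch and jasmonate genes, 0.06 for protoderm, 0.12 for secondary wall, 0.02 for auxin synthesis, -0.09 for photosynthesis, -0.37 for seed maturation and 0.03 for the root pole.

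**Figure D5:**
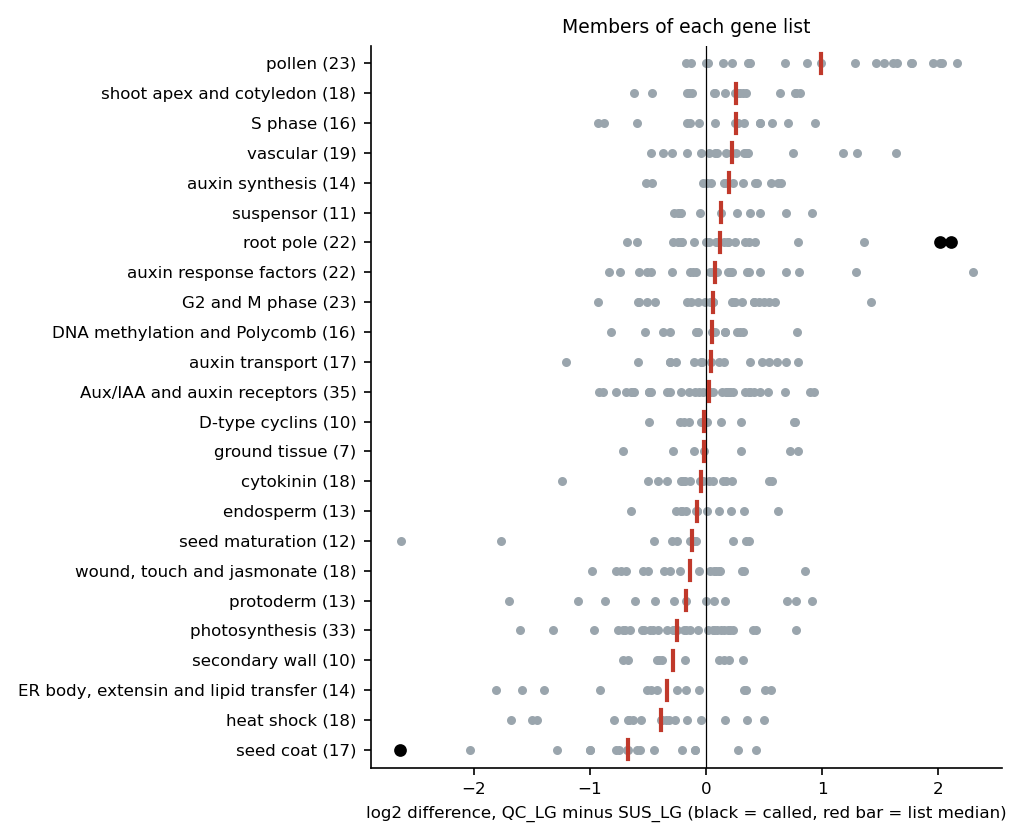
Difference of each member of the 24 gene lists (horizontal axis, log2 of QC_LG minus SUS_LG), with called genes in black, others in grey and a red bar at each list's median; lists are ordered by median, and the number of genes stands in brackets. The called members are WOX5 and WIP4 in the root pole list and TT8 in the seed coat list, and the medians run from -0.67 (seed coat) to 0.99 (pollen).

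Most photosynthesis genes were lower than in the whole embryo in both groups, but not in these groups alone. The list mean was 3.76 in QC_LG, 4.02 in SUS_LG, 4.26 in VSC_LG and 4.30 in GSC_LG, beside 5.73 in EMB_LG. QC_LG minus EMB_LG gave 204 higher (0.733%) and 213 lower calls (0.765%), 417 in all (1.5%), and SUS_LG minus EMB_LG gave 150 higher (0.539%) and 119 lower (0.428%), 269 in all (0.967%); the 2 comparisons share the EMB_LG arrays. Of 33 photosynthesis genes, 25 were called lower in QC_LG than in EMB_LG and 21 were called lower in SUS_LG than in EMB_LG, with medians of -2.15 and -1.76. Between QC_LG and SUS_LG 0 of the 33 were called, 4 were lower and 0 higher at an unadjusted p under 0.05, and the median was -0.25. LHCA4 (AT3G47470), an antenna protein gene of photosystem I, had 4.99, 4.07 and 4.13 in QC_LG, 5.92, 6.02 and 5.2 in SUS_LG and 7.59, 7.59, 7.30 and 7.41 in EMB_LG. It was lowest in QC_LG without overlap, but the difference from SUS_LG of -1.31 did not pass (adjusted p = 0.16).

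In the list of ER body, extensin and lipid transfer genes, 6 of 14 were called lower in QC_LG than in EMB_LG, as were 0.765% of all loci. In SUS_LG 3 of 14 were called lower than in EMB_LG, as were 0.428% of all loci. Between QC_LG and SUS_LG 0 were called and 2 were lower at an unadjusted p under 0.05. PYK10 (AT3G09260), a beta-glucosidase gene of ER bodies, had 5.06, 3.06 and 4.52 in QC_LG, 6.26, 5.6 and 5.53 in SUS_LG and 7.65, 7.0, 7.88 and 8.07 in EMB_LG. The wound, touch and jasmonate genes ran the other way, with medians of 1.25 for QC_LG minus EMB_LG and 1.26 for SUS_LG minus EMB_LG. Of the 18, 2 were called higher in QC_LG and 5 in SUS_LG, as were 0.733% and 0.539% of all loci. Neither shift was particular to QC_LG and SUS_LG. The mean of the ER body, extensin and lipid transfer list was 3.37 in VSC_LG and 3.31 in GSC_LG, beside 5.21 in EMB_LG. That of the wound, touch and jasmonate list was 4.02 in VSC_LG and 4.08 in GSC_LG, beside 2.96 in EMB_LG. The S phase list had medians of -0.53 and -0.69, and the G2 and M phase list of -0.55 and -0.56, against EMB_LG. These counts against EMB_LG moved with the arrays used: without QC_LG 3 the QC_LG count was 149, without EMB_LG 3 it was 253 and without EMB_LG 4 it was 233, while the SUS_LG count was 54 without SUS_LG 2, 86 without SUS_LG 3, and 147, 136 and 158 without EMB_LG 1, 3 and 4.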

How the data were processed

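Nuclear RNA of embryo cell types was measured on 38 one-colour arrays. The deposited intensity values are linear. The authors made them by RMA, which corrects background, quantile-normalizes and summarises probes, per the submitters' processing notes; its version is not given in the sources used here. RMA removes differences in total RNA, and differences of dim genes are understated. Depth has no meaning on arrays, so the number of arrays limits the precision. Here values were taken to log2 and fitted with limma 3.58.1 (R 4.3.3): 38 arrays, 11 group means, no covariate, eBayes with 1 prior variance, 27 residual degrees of freedom. Calls needed an adjusted p under 0.05 (Benjamini-Hochberg, two-sided) over 27826 loci; intervals are 95%. The code was tested on simulated data. Symbols came from a RefSeq gene table, which held 27241 of the loci, 10556 with a symbol; no sequences or coordinates were used.

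The 24 lists (419 entries, 403 genes) and the comparison itself were chosen with earlier results of these data known, and 4 further gene groups after values were seen. By rule the text names up to 12 largest rises and falls that have a symbol and arrays without overlap, every root pole and suspensor gene, and the 3 genes of smallest p of each other list; not all are printed. Replicate numbers do not pair the groups. Alternatives were other normalizations, filters, array weights, fewer arrays, a replicate block, and each array left out. Plots used matplotlib 3.10.9 and Python 3.11.15.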

Additional observations from a re-analysis of the deposited data

How the results depend on the processing

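The 28 calls of QC_LG against SUS_LG were 59 with quantile normalization (40 higher, 19 lower) and 64 with arrays scaled to 1 interquartile range, but 4 with only the arrays taken at 100 h, 1 with only the 6 arrays compared, and 0 with the pollen mean or the seed coat mean as a covariate, both chosen after seeing the data (1682 and 1885 loci at an unadjusted limma p under 0.05). Leaving out 1 array gave 0 to 107. Median centring, the dim-locus filter, array weights, an intensity trend and an added 2-fold threshold gave 21 to 33, within 1.5 times. Same-numbered arrays of QC_LG and SUS_LG deviated with correlations of -0.0925, -0.143 and -0.0800, so their numbers do not pair them; with the replicate block 22 loci were called (18 higher, 4 lower), all 22 among the 28, and the counts against EMB_LG were 439 for QC_LG and 242 for SUS_LG. The 417 calls of QC_LG against EMB_LG were 664 with quantile normalization, 173 with only the arrays at 100 h, 43 with only the groups compared, and 149 to 624 when 1 array was left out. The 269 calls of SUS_LG against EMB_LG were 161, 156 and 54 to 232 under the last 3 of these. The fits on fewer arrays have fewer residual degrees of freedom, but the cause of the changes in these counts was not tested for any setting. All 28 loci kept the sign of their difference in the 14 planned settings in which each was recomputed. Since their arrays do not overlap, the fits on fewer arrays could not have changed it. Dim genes such as WOX5 in SUS_LG lie below the array medians, where the signal limits what can be seen.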
